A study of Mus musculus with 2 samples.

Results

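Potassium channel genes were taken as all protein-coding genes on chromosomes 1 to 19 whose symbol starts with Kcn, 92 of the 20807 protein-coding genes there in the GENCODE M21 annotation. They fall into 21 subfamilies by symbol, which were sorted into 6 classes by the role of the protein. The 2 coding Kcn genes on the X chromosome, Kcnd1 and Kcne1l, and 5 non-coding genes with Kcn names were left out by this rule.

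Chromatin was profiled by DNase-seq, which maps where DNase I, a nuclease, reaches the DNA: stretches free of nucleosomes are cut often. The tissue was hippocampus, called a hippocampal layer in the labels, from male B6CASTF1/J mice, the F1 hybrid of C57BL/6J and CAST/EiJ, at 10 days of age. There was 1 group of 2 biological replicates, each described as holding 3 males, and no second condition, so no test between conditions was possible. Both replicates carry the same donor label, so the spread between them may be technical. For each replicate the authors deposited a shorter and a longer list of open regions, footprints, meaning short protected stretches where something bound blocks the nuclease, and false discovery rates of the local cut rate. The shorter lists held 54546 regions in replicate 1 and 74278 in replicate 2, the longer lists held 94187 and 131213, and the footprint lists held 226223 and 345745. The read depth of the libraries is unknown, and the larger lists of replicate 2 go with every excess in replicate 2 given below; the part of depth in it was not tested.

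As a check of the tissue, all 4 neuronal marker genes examined (Rbfox3, Snap25, Map2 and Syt1), both dentate granule cell markers and all 3 pyramidal cell markers had a promoter region in both libraries. The same held for 60.5% of all coding genes, and these counts alone do not identify the tissue or its cell types. None of the 3 liver markers did, but 1 of the 3 muscle markers, Ckm, had heights of 2.02 in replicate 1 and 3.21 in replicate 2. Of the markers of other cells of the brain, 1 of 4 for astrocytes, 3 of 4 for the oligodendrocyte lineage, and none for microglia (0 of 4), endothelium and pericytes (0 of 4) or choroid plexus (0 of 2) were open in both libraries. The astrocyte markers Aqp4 (0.811) and Aldh1l1 (0.553) and the pericyte markers Pdgfrb (1.08) and Rgs5 (0.559) were open in replicate 1 alone. This state held for 0.341% of coding genes. Other markers went the other way and were open in replicate 2 alone, as were 4.82% of coding genes. They were Slc1a3 (0.776) for astrocytes, Csf1r (0.869) and Tmem119 (0.918) for microglia, and Ttr (0.497) for choroid plexus. The part of these cell types in the results was not tested. In bulk tissue an open region in few cells and a weakly open region in many cells cannot be told apart.

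Potassium channels let potassium leave a cell along its gradient, which pulls the membrane back to rest after a spike and sets how easily a neuron fires. Most are built from 4 pore-forming subunits around a shared selectivity filter, and the families differ in what opens the gate: voltage, intracellular calcium or sodium, G proteins, ATP, lipids, acid or stretch. In the hippocampus, A-type and delayed-rectifier channels shape spikes and dendritic signals, the slow M-current limits repeated firing, and inward rectifiers hold the resting potential in neurons and glia.

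A gene was called open in a library where a region of the shorter list lay within 1000 bp of any of its annotated starts, and its height was that of the highest such region, in the signal units of the authors, whose scale the sources used here do not state. A region elsewhere in the gene body or within 10 kb of it was called distal. The sequences of 5 promoter stretches are shown here, 1 for each class but the silent subunits. Each is from a promoter among the higher of its class by the mean of both libraries, lies outside annotated UTR exons and holds footprints shared by the libraries. Kcnip3 lay above the median of the open auxiliary genes in replicate 1 (2.21 against 1.23) and below it in replicate 2 (1.63 against 1.75). The end of the Kcnip3 stretch lies in the first exon of a processed transcript with no coding sequence. The stretches are read along the gene from the GRCm38.p6 reference assembly of RefSeq (mm10 coordinates), and capitals mark bases inside a footprint in both libraries. They come from chr1:192190601-192190773 on the plus strand (Kcnh1), chr3:89519941-89520163 on the plus strand (Kcnn3), chr11:111065961-111066163 on the plus strand (Kcnj2), chr14:20181810-20181980 on the minus strand (Kcnk5) and chr2:127522061-127522360 on the minus strand (Kcnip3).
Kcnh1 promoter: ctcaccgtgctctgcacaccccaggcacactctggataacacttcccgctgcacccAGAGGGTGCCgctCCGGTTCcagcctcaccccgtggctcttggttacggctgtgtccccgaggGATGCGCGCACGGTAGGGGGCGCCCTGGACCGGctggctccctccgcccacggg
Kcnn3 promoter: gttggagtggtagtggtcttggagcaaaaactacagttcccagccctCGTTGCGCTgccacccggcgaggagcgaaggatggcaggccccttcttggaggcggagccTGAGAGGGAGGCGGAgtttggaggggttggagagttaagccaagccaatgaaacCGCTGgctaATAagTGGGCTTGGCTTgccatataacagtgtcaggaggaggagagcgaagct
Kcnj2 promoter: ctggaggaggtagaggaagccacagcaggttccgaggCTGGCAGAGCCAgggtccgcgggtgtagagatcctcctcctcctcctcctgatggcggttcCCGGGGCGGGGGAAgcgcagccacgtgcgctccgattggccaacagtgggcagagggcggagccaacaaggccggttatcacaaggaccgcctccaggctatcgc
Kcnk5 promoter: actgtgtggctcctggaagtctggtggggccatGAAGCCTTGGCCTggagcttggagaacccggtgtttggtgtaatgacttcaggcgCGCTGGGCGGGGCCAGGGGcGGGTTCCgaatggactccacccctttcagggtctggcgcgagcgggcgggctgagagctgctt
Kcnip3 promoter: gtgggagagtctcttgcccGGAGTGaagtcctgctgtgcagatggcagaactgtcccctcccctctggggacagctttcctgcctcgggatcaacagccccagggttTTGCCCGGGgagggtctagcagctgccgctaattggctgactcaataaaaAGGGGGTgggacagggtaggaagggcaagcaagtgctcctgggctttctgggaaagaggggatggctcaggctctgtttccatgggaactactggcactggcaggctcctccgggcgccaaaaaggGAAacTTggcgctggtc
Shared footprints covered 50 bases of the Kcnh1 stretch, 44 of the Kcnn3 stretch, 26 of the Kcnj2 stretch, 39 of the Kcnk5 stretch and 27 of the Kcnip3 stretch.

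Of the 92 Kcn genes, 55 (59.8%) were open in both libraries, against 60.5% of all coding genes. Replicate 1 had 55 open members (59.8%), against 60.8% of all coding genes, and replicate 2 had 67 (72.8%), against 65.3%. The 12 members open in a single library (13%) were all open in replicate 2 and none in replicate 1 alone. Among all coding genes 5.16% were open in a single library, 4.82% in replicate 2 alone and 0.341% in replicate 1 alone. The remaining 25 members (27.2%) were open in neither library, against 34.3% of all coding genes. In the longer lists 68 members (73.9%) were open in both libraries, against 65.7% of all coding genes, and 15 (16.3%) in neither, against 29.8%.

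**Figure D1:**
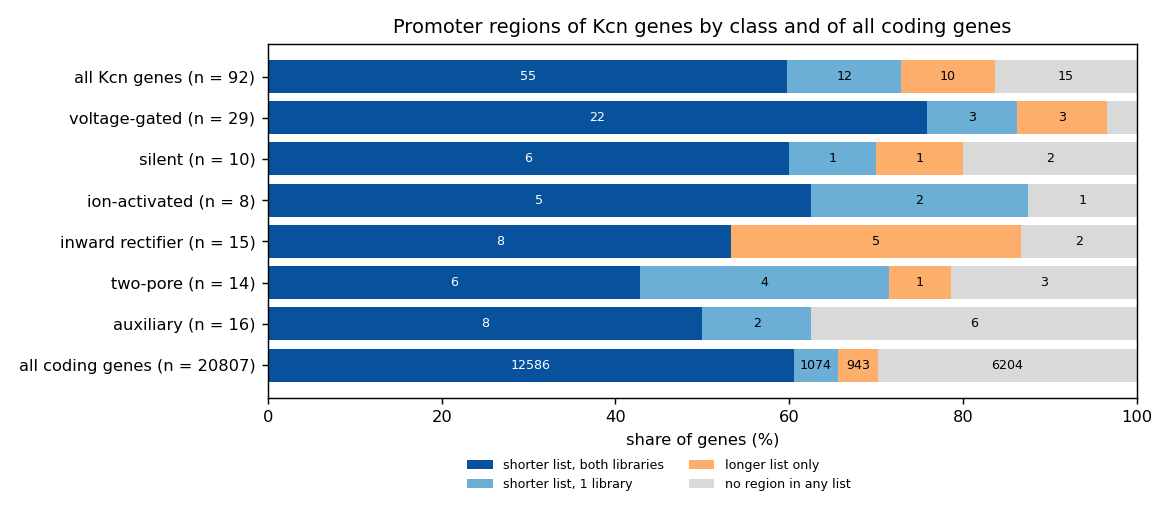
Share of genes (%) by promoter state for all 92 Kcn genes, for the 6 classes and for all 20807 coding genes, with the number of genes written in each bar segment. Voltage-gated genes have the longest dark segment (22 of 29 open in both libraries of the shorter list), and 10 of the 25 members without a region in the shorter list have one in the longer list.

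Open Kcn promoters lay low among open genes. Over the 55 members open in both libraries the median height was 1.21 in replicate 1 and 1.63 in replicate 2, against 2.66 and 3.44 over the 12586 coding genes open in both. In replicate 1 49 of the 55 lay below the median of open genes, and in replicate 2 48 did. Their median percentile among open genes was 17.4 in replicate 1 and 22.5 in replicate 2. A single member, Kcnab2, reached the top 10% of open genes, with heights of 10.7 and 11.0. A start of the neighbouring coding gene Nphp4 also lies within 1000 bp of that region, so the height cannot be given to either gene alone.

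**Figure D2:**
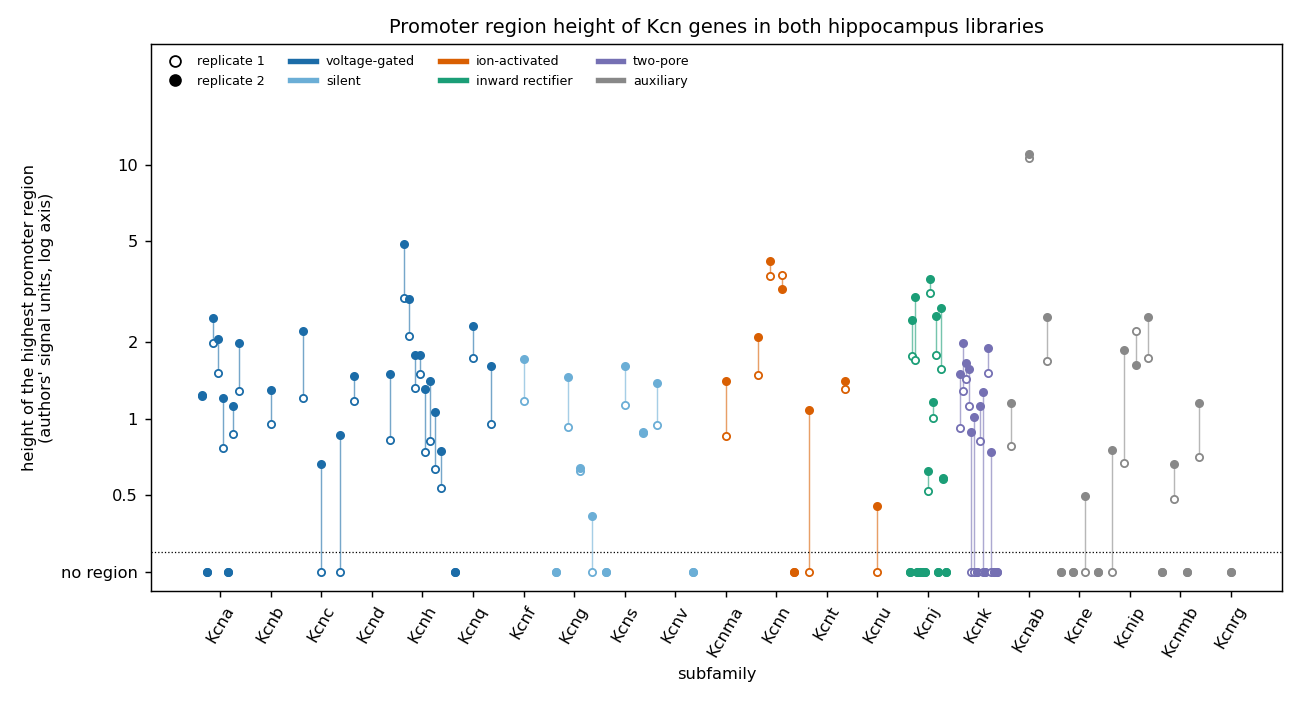
Height of the highest promoter region of 88 Kcn genes (signal units of the authors, log axis) by subfamily, with replicate 1 as open and replicate 2 as filled points joined by a line; points below the dotted line had no region in the shorter list. Most open genes lie between 0.5 and 5, and Kcnab2 stands alone near 11.0.

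Voltage-gated channel genes encode pores that open on depolarisation. In both libraries 22 of 29 were open, 3 more in replicate 2, and 4 in neither, and the open ones had a median height of 1.23 in replicate 1 and 1.70 in replicate 2.

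All 8 Kcnh genes, which encode the ether-a-go-go family, were open in both libraries. Kcnh1 was the highest of them, with a height of 2.99 in replicate 1 and 4.88 in replicate 2, from the stretch printed above. Kcnh2, the ERG channel whose human counterpart is known for long QT syndrome, followed with 2.12 and 2.97. Kcnh8 was the lowest, with 0.534 and 0.748. Kcnh1 was above Kcnh8 in each library, and so was Kcnh2.

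The Kcna genes encode Shaker-type channels, several of which sit on axons. In both libraries 6 of 8 were open: Kcna1, Kcna2, Kcna3, Kcna4, Kcna6 and Kcna7. Kcna2, an axonal channel, was the highest, with 1.99 in replicate 1 and 2.49 in replicate 2. Kcna1, which pairs with it in axons, had 1.24 and 1.23, with 4 separate promoter blocks in replicate 1 and 3 in replicate 2. Kcna4, an A-type channel, had 0.767 and 1.21. Kcna5, known from heart and vessels, and Kcna10 were open in neither library, and the longer list of replicate 2 held a region for each, at 0.541 for Kcna5 and 0.830 for Kcna10.

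Kcnb2, a delayed rectifier of neurons, and both Kcnd genes, the A-type channels of dendrites, were open in both libraries. Kcnb2 had 0.955 in replicate 1 and 1.29 in replicate 2. Kcnd2 had 1.18 and 1.48, and Kcnd3 had 0.823 and 1.51, so that Kcnd2 was the higher Kcnd gene in replicate 1 and Kcnd3 in replicate 2.

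The Kcnc genes encode fast delayed rectifiers known for interneurons that fire at high rates. Kcnc1 had 1.21 in replicate 1 and 2.21 in replicate 2. Kcnc2 and Kcnc4 were open in replicate 2 alone, Kcnc2 at 0.661 and Kcnc4 at 0.863. In the longer list of replicate 1 Kcnc2 had a region of 0.534 and Kcnc4 a region of 0.704.

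Kcnq3 and Kcnq5 take part in the neuronal M-current, and both were open in both libraries. Kcnq3 was the higher, with 1.74 in replicate 1 and 2.32 in replicate 2, and Kcnq5 had 0.955 and 1.62. Kcnq1, the cardiac and inner ear channel, was open in neither library and had no region in the longer lists either.

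The silent subunits (Kcnf, Kcng, Kcns and Kcnv) form no channel alone and alter delayed rectifiers of the Kcnb type when they join them. Of 10 genes, 6 were open in both libraries, 1 in replicate 2 and 3 in neither. Kcnf1 was the highest, with 1.18 in replicate 1 and 1.73 in replicate 2. Kcns2 had 1.14 and 1.62, Kcnv1 had 0.943 and 1.38, Kcng2 had 0.930 and 1.46, Kcns3 had 0.880 and 0.890, and Kcng3 had 0.622 and 0.639. Kcng3 and Kcns3 lay within 0.04 log2 units of equal height in both libraries. Kcng4 was open in replicate 2 alone at 0.415, the lowest height of the 12 single-library members, and it is the single gene of those 12 with no region in the longer list of replicate 1. Kcng1, Kcns1 and Kcnv2 were open in neither.

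Ion-activated channel genes were open in both libraries in 5 of 8 cases, in replicate 2 alone in 2 and in neither in 1. The calcium-activated SK channels set the afterhyperpolarisation that follows spikes, and their 3 genes were all open. Kcnn2 had 3.65 in replicate 1 and 4.19 in replicate 2, Kcnn3 had 3.70 and 3.23, and Kcnn1 had 1.48 and 2.10. Kcnn2 and Kcnn3 exchanged order between the libraries, so which of them is the higher was not settled. Kcnn4, the intermediate-conductance relative known from blood cells and epithelia, was open in neither library. Kcnma1, the large-conductance BK channel, had 0.855 and 1.40.

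The sodium-activated channel Kcnt2 had 1.31 in replicate 1 and 1.40 in replicate 2, while Kcnt1 was open in replicate 2 alone at 1.08, with 0.679 in the longer list of replicate 1. Kcnu1, a sperm channel, was open in replicate 2 alone at 0.453, with 0.396 in the longer list of replicate 1.

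Inward rectifier genes were either open in both libraries (8 of 15) or in neither (7 of 15). Their open members had the highest median of the 6 classes, 1.64 in replicate 1 and 2.50 in replicate 2. Kcnj2, a classical strong rectifier, was the highest, with 3.12 and 3.56, from the stretch printed above. Kcnj4, a strong rectifier of forebrain neurons, had 1.78 and 2.55. Kcnj11, the pore of the ATP-sensitive channel of neurons and pancreatic beta cells, had 1.71 and 3.02, and its vascular counterpart Kcnj8 had 0.585 and 0.579. Kcnj8 was below Kcnj11 in each library.

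G protein-gated rectifiers answer transmitters such as GABA and acetylcholine. Kcnj6 had 1.56 in replicate 1 and 2.73 in replicate 2, and Kcnj3 had 1.01 and 1.17. Kcnj9, a neuronal subunit of the same channels, was open in neither library by the shorter list, yet the longer lists gave 1.29 and 1.02. The lowest false discovery rate near its starts was 0.0187 in replicate 1 and 0.00122 in replicate 2, both above the 0.001 that every region of the shorter lists reached at some base. Kcnj5, the cardiac partner, was also open in neither.

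Kcnj10, the astrocyte rectifier that buffers potassium around neurons, had 1.77 and 2.46, and its partner Kcnj16 had 0.522 and 0.623. Kcnj1, the kidney rectifier, Kcnj12, Kcnj13, known from choroid plexus and retinal pigment epithelium, Kcnj14 and Kcnj15 were open in neither library. Kcnj13 and Kcnj14 also had no region in the longer lists and no base at a listed rate of 0.05 or lower near a start.

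Two-pore domain genes, which encode the background leak channels, had 6 of 14 open in both libraries, 4 in replicate 2 alone and 4 in neither. The 6 had a median height of 1.20 in replicate 1 and 1.62 in replicate 2. Kcnk10, a channel opened by stretch and lipids, had 1.29 and 1.98, its relative Kcnk2 had 0.817 and 1.12, and Kcnk4 of the same group was open in neither, with 1.11 in the longer list of replicate 2. Kcnk5, an acid-sensitive channel known from kidney, had 1.52 and 1.90. Kcnk12 had 1.43 and 1.67, Kcnk13, a channel known in microglia, had 1.12 and 1.58, and Kcnk1 had 0.924 and 1.50. Heights of Kcnk5, Kcnk12 and Kcnk10 did not keep 1 order across the libraries.

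The 4 two-pore genes open in replicate 2 alone were Kcnk3 at 1.27, Kcnk16 at 1.02, Kcnk15 at 0.890 and Kcnk6 at 0.743. In the longer list of replicate 1 Kcnk3 had 0.635, Kcnk16 had 0.453, Kcnk15 had 0.622 and Kcnk6 had 0.635. Kcnk3 is an acid-sensitive leak channel of neurons, and its closest relative Kcnk9 was open in neither library, with no listed false discovery rate near a start. Kcnk7 and Kcnk18, a channel of sensory neurons, were likewise open in neither.

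Auxiliary genes, whose products attach to the pores, were open in both libraries in 8 of 16 cases, in replicate 2 alone in 2 and in neither in 6. All 3 beta subunits of Shaker channels were open: Kcnab2 as given above, Kcnab3 with 1.68 in replicate 1 and 2.51 in replicate 2, and Kcnab1 with 0.779 and 1.15. The Kcnip genes encode the calcium-binding partners of the dendritic A-type channels. Kcnip3 had 2.21 and 1.63, Kcnip4 had 1.74 and 2.52, and Kcnip2 had 0.673 and 1.86, so their order differed between the libraries. Kcnip1 was open in replicate 2 alone at 0.754, with 0.434 in the longer list of replicate 1.

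Of the 4 BK channel beta subunits, Kcnmb4, the neuronal one, had 0.710 and 1.16, and Kcnmb2 had 0.484 and 0.666, the lowest height of any member open in both libraries in replicate 1. Kcnmb1, the smooth muscle subunit, and Kcnmb3 were open in neither. No Kcne gene was open in both libraries: Kcne3 was open in replicate 2 alone at 0.497, and Kcne1, Kcne2 and Kcne4 in neither. Kcnrg, a regulator of channel assembly, was open in neither.

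Sorted by where the channel is best known to act, members known from hippocampal or cortical neurons were open in both libraries in 37 of 46 cases, in a single library in 6 and in neither in 3, namely Kcnj9, Kcnk4 and Kcnk9. Of 8 members known from glia, vessels or choroid plexus, 4 were open in both (Kcnj10, Kcnj16, Kcnj8 and Kcnk13). Of 10 members known mainly outside the brain, 1 was open in both (Kcnk5), 3 in replicate 2 alone and 6 in neither. The other 28 members had 13 open in both and 13 in neither. These lists were drawn up with earlier results of these data known, and their counts are descriptions beside the 60.5% of all coding genes.

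Between the libraries, Kcn promoters were higher in replicate 2. Of the 55 members open in both, 51 were higher in replicate 2, against 87.6% of coding genes open in both. The median log2 ratio of replicate 2 over replicate 1 was 0.49 for the members, a ratio of 1.40, against 0.32 and 1.25 for all coding genes open in both. By mean height, the median was 0.46 for the 12 members below 1, against 0.37 for all coding genes there, and 0.55 for the 17 members from 1 to 1.5, against 0.44. It was 0.44 for the 10 members from 1.5 to 2, against 0.43, and 0.48 for the 16 above 2, against 0.29. The 4 members higher in replicate 1 were Kcnip3 (log2 ratio -0.44), Kcnn3 (-0.19), Kcnj8 (-0.01) and Kcna1 (-0.01). Kcnip2 had the largest ratio the other way, 1.47 on the log2 scale. Over the 55 members, the log2 heights correlated between the libraries at 0.926 by Pearson's r and 0.903 by Spearman's rho, a description over genes that share the same pair of libraries.

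**Figure D3:**
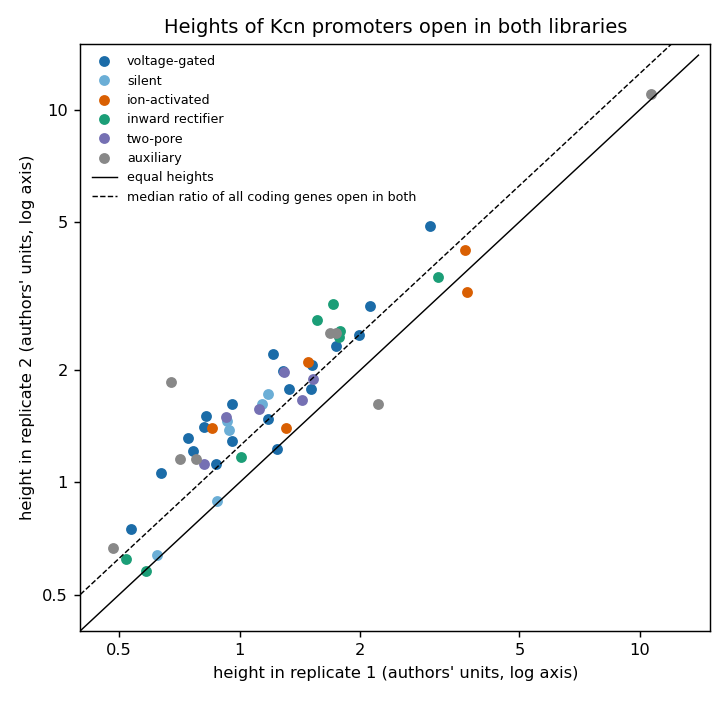
Promoter height in replicate 2 against replicate 1 (both in signal units of the authors, log axes) for 53 Kcn genes open in both libraries, coloured by class. The solid line marks equal heights and the dashed line the median ratio of 1.25 of all coding genes open in both; 49 points lie above the solid line, Kcnip3 lies furthest below it and Kcnip2 furthest above it.

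The 12 single-library members had heights between 0.415 and 1.27 in replicate 2, with a median of 0.808, and 11 of them had a region in the longer list of replicate 1. Of the 25 members open in neither library, 14 had no base at a listed rate of 0.05 or lower near a start in either library: Kcne1, Kcne2, Kcne4, Kcnj13, Kcnj14, Kcnk18, Kcnk7, Kcnk9, Kcnmb3, Kcnn4, Kcnq1, Kcnrg, Kcns1 and Kcnv2. The other 11 had such a base. The counts of longer-list regions at single-library genes and of listed bases at closed genes were not taken over all coding genes.

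Shares of open genes were also taken by CpG content, without a test. Starts were called CpG-rich where the 500 bp on each side of any start held a CpG observed-to-expected ratio of at least 0.6 and at least 55% G and C. By this measure 50 members (54.3%) were CpG-rich, against 47.5% of all coding genes. Of the CpG-rich genes, 39 of 50 members (78%) were open in both libraries, against 91.1% of all coding genes. Their median heights were 1.33 in replicate 1 and 1.78 in replicate 2 for members, against 2.98 and 3.80 for all coding genes. Among the 5 CpG-rich members open in neither were Kcng1, Kcnj12, Kcnk9 and Kcnq1. Of the CpG-poor genes, 16 of 42 members (38.1%) were open in both, against 32.8% of all coding genes. Kcnj2, Kcnn3, Kcnn1 and Kcnf1 were among these 16.

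Several members had more than a single open block at their starts. Regions that overlapped within a library were merged into 1 block. Of the 55 members open in both libraries, 29 had at least 2 separate blocks in each library and 9 had 3 or more, against 13.3% of coding genes open in both with 3 or more. The share with at least 2 blocks was not taken over all coding genes. Before merging, the median number of promoter regions was 2 in each library, for members and for all coding genes open in both. Among the 9 were Kcna1, Kcnc1, Kcnip3, Kcnip4, Kcnj3, Kcnj6, Kcnn2 and Kcnq5. Kcnn2 had 5 in each library, and Kcnj3 had 5 in replicate 1 and 3 in replicate 2. The promoter regions of a member covered a median of 416 bp in replicate 1 and 702 bp in replicate 2, against 340 and 448 bp over all coding genes open in both.

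Where starts lay more than 2 kb apart they were counted as separate groups, and 46 members had at least 2 groups, 136 in all, of which 39 had a region in both libraries. In 24 of the 46 a single group was open in both libraries, in 18 of these the most upstream one. The other 6 were Kcnk2, open at group 3 of 5 counted from the 5′ end, Kcnma1 at group 2 of 7, Kcnk10 at group 2 of 3, Kcnn1 at group 2 of 4, Kcnj16 at group 2 of 3 and Kcnh6 at group 2 of 2. In 7 members more than 1 group was open, among them Kcnc1, Kcnh2, Kcnip3, Kcnip4, Kcnk5 and Kcnn2. In the remaining 15 no group was open in both. Start groups were not counted over all coding genes, so these counts cannot be called particular to Kcn genes.

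Kcnc1 had 1.16 in replicate 1 and 2.21 in replicate 2 at its first group and 1.21 and 2.13 at the second, so that a different group was higher in each library. Kcnn2 had 3.65 and 4.19 at its second group, against 1.06 and 1.57 at the first. Kcnh2 had 2.12 and 2.97 at its first group, against 0.842 and 1.01 at the second. Kcnip4 had 1.74 and 2.52 at the first, while groups 3 and 5 had 0.352 and 0.290 (group 3) and 0.390 and 0.355 (group 5).

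**Figure D4:**
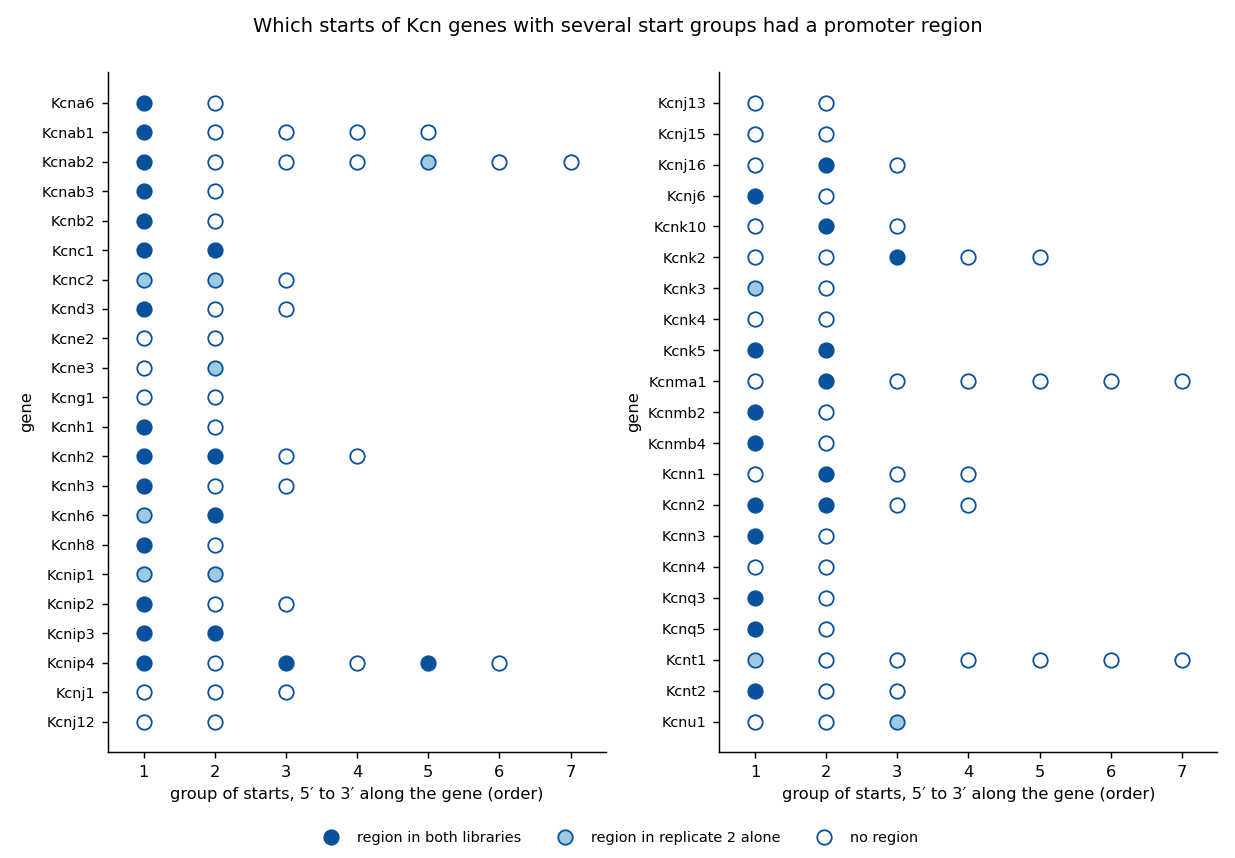
Groups of annotated starts, numbered 5′ to 3′ along the gene, for 43 Kcn genes with at least 2 groups; dark points had a promoter region in both libraries, pale points in replicate 2 alone and open points in neither. Most dark points stand at group 1, and 6 genes have more than 1 dark point.

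Footprints lay in the promoter regions of both libraries for 53 of the 55 members open in both, against 99.2% of coding genes open in both. The exceptions were Kcng3, with 0 in replicate 1 and 4 in replicate 2, and Kcnip2, with 0 and 3. The 55 members had a median of 5 footprints in replicate 1 and 8 in replicate 2, against 5 and 7 for all coding genes open in both. In replicate 2 they had 11.8 per kilobase of promoter region, against 13.8. The regions of the 55 members open in both libraries held 321 footprints in replicate 1 and 495 in replicate 2. Of those of replicate 1, 51.1% overlapped a footprint of replicate 2, against 63.4% for all coding genes open in both. Kcnn2 had the most, 19 in replicate 1 and 25 in replicate 2, of which 13 of replicate 1 were shared. Kcnc1 had 12 and 21, Kcnj3 had 13 and 16, and Kcnma1 had 14 and 13. Kcnc1 shared 8 of its 12, Kcnj3 shared 4 of its 13 and Kcnma1 shared 4 of its 14.

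Motif patterns were searched on both strands in windows of 250 bases before to 50 after each RefSeq start, of which 68 members had 93 and 15687 coding genes had 19174. The shorter patterns were TGACGTCA for the full cAMP response element (CRE) and TGACG for its core, which lies inside the full one, GCGTGGGCG for EGR, GGGCGG for SP/KLF, CAGCTG and CAGATG for E-boxes, TGANTCA for AP-1, CCGGAAG for ETS and TATAAA for the TATA box. The longer ones, for REST, CTCF, NRF1, MEF2, RFX and NFI, are given by name. The SP/KLF pattern can overlap that of EGR. NRF1 was in 0 of the 93 member windows, against 6.74% of all windows, and ETS in 3.23%, against 12.1%. SP/KLF was in 47.3% of member windows, against 48.3% of all windows. The E-box CAGCTG was in 24.7%, against 15.8%, and CAGATG in 20.4%, against 14.4%. In the 200 bases centred on the highest promoter region of replicate 1, CAGCTG was in 12.7% of the 55 members open in both libraries, against 10.9% of coding genes open in both, and CAGATG in 7.27%, against 6.71%. In the RefSeq windows the TATA box was in 5.38%, against 12.1%, namely at Kcnab1, Kcnj13, Kcnj15, Kcnj16 and Kcnj9. In the 200 centred bases it was in 0% of the members open in both libraries, against 2.53%. Windows of a gene with several starts can overlap. A match is no measured binding, and absence says only that these letters are not in the window.

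Single matches can be seen in the printed stretches. The Kcnip3 promoter holds the 1 RFX match among member windows (gtttccatgggaac, read along the gene), at chr2:127522115-127522128, where 11 of its 14 bases lay in footprints of replicate 1 and 0 in replicate 2. The Kcnk5 promoter holds SP/KLF matches, in part inside the capitals.

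Distal regions shared by the libraries were found at 60 of the 92 Kcn loci, against 45.5% of all coding genes. They were counted as distal regions of replicate 1 that overlapped any region of replicate 2. The region of replicate 2 could be a promoter region, as at Kcnn2, and several could overlap the same one. There were 165 of these regions, of which 1 lies in both Kcnip1 and the locus of Kcnmb1. Counting that region at each gene, 105 were in introns, 15 in exons and 46 in the flanks, and 5 lay in another coding gene. None of these counts was taken over all shared distal regions. Members had a mean of 1.80 shared distal regions, against 0.955 over all coding genes, and a median locus of 52.2 kb, against 37.6 kb. Per 100 kb of locus, pooled over genes, members had 1.36, against 1.38. In loci below 50 kb the mean was 1.00 for 45 members, against 0.511. It was 1.5 for 20 members from 50 to 100 kb, against 1.03, and 2.5 for 12 members from 100 to 300 kb, against 2.13. In loci of 300 kb and more it was 4.07 for 15 members, against 5.65. The shared distal regions had a median height of 1.18 in replicate 1 and 1.44 in replicate 2, against 1.04 and 1.27 over all 26833 shared distal regions. Footprints of both libraries lay in 95.8% of them, against 94.3%.

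**Figure D5:**
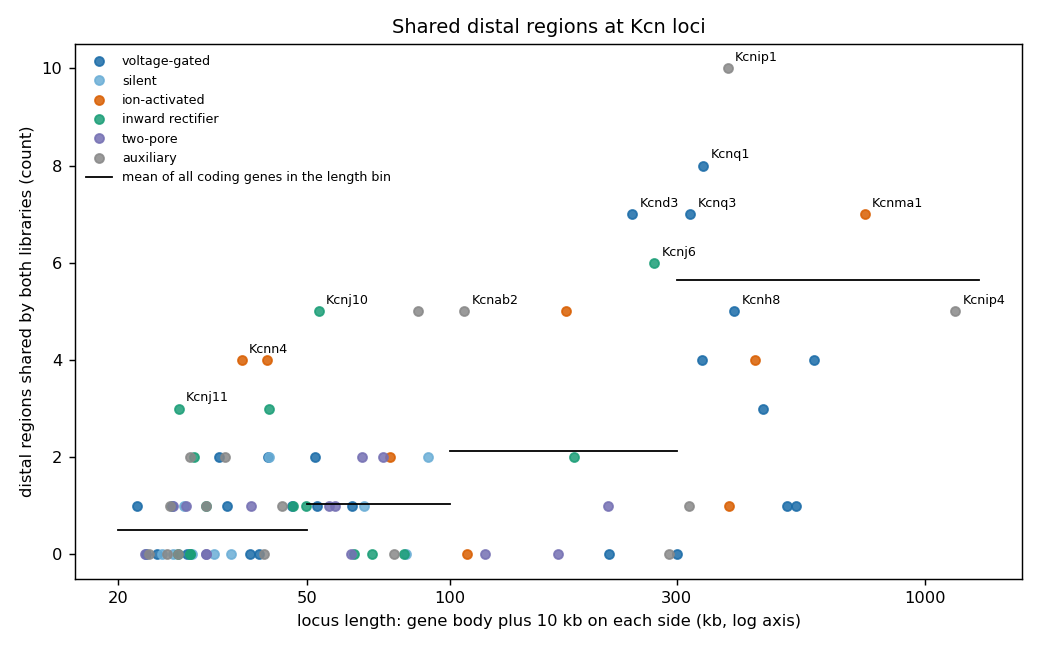
Number of distal regions shared by both libraries at each Kcn locus against locus length (kb, log axis), coloured by class, with black lines for the mean of all coding genes in each length bin. Kcnip1 has the most with 10, while Kcnj10 with 5 and Kcnj11 with 3 lie in shorter loci. 88 Kcn genes are drawn.

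Kcnip1 had the most shared distal regions, 10, although its promoter was open in replicate 2 alone. All 10 distal regions of replicate 1 there were shared, while replicate 2 had 15. The highest, in an intron 109901 bp from the nearest start, had 3.16 in replicate 1 and 3.57 in replicate 2. Kcnq1 came next with 8, of 9 in replicate 1 and 15 in replicate 2, and had no promoter region in any list. Its highest, in an intron 44747 bp from the nearest start, had 2.17 and 4.04. Both are shown because they stand at loci with most distal regions and with a closed or single-library promoter. The Kcnip1 region is chr11:33733341-33733560 on the minus strand and the Kcnq1 region chr7:143153941-143154120 on the plus strand, printed along each gene with shared footprints in capitals.
Kcnip1 intron region: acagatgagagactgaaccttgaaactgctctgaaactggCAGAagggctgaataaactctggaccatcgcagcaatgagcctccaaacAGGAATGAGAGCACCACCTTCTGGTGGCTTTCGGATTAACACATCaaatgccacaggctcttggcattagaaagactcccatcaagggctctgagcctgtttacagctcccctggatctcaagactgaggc
Kcnq1 intron region: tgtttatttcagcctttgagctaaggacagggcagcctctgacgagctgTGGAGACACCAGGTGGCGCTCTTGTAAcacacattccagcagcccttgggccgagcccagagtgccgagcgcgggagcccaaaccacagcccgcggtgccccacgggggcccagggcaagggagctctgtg
Shared footprints covered 49 bases of the Kcnip1 region and 27 of the Kcnq1 region, which is a single stretch.

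Kcnd3, Kcnma1 and Kcnq3 had 7 shared distal regions each, Kcnj6 had 6 and Kcnab2, Kcnh8, Kcnip3, Kcnip4, Kcnj10 and Kcnn3 had 5 each. The 7 at Kcnd3 lay between 0.660 and 2.02 in replicate 1 and between 0.737 and 2.14 in replicate 2, and 6 were in introns. At Kcnma1 all 7 were in introns, and the highest, 3522 bp from the nearest start, had 3.62 and 4.94, above its promoter in both libraries. Kcnj6 had 7 such regions in replicate 1 but 21 in replicate 2, the widest gap between the libraries among these loci. By length, dense loci were those of Kcnj11 with 11.2 shared distal regions per 100 kb, Kcnn4 with 11.0, Kcnn1 with 9.71 and Kcnj10 with 9.46.

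The highest distal region of any member lay 2403 bp upstream of Kcnn1, an SK channel gene, at chr8:70865661-70865960, with 7.71 in replicate 1 and 8.03 in replicate 2. Its own promoter had 1.48 and 2.10, so the flanking region was higher in both libraries. It held 7 footprints in replicate 1 and 11 in replicate 2, and matches to EGR, NRF1 and SP/KLF. The EGR match lay wholly in footprints of both libraries. A second Kcnn1 region, in an intron at chr8:70844621-70844820, had 2.87 and 5.01 and holds a CTCF match whose 12 bases lay in footprints of both. Both are printed along the minus strand, with shared footprints in capitals.
Kcnn1 upstream region: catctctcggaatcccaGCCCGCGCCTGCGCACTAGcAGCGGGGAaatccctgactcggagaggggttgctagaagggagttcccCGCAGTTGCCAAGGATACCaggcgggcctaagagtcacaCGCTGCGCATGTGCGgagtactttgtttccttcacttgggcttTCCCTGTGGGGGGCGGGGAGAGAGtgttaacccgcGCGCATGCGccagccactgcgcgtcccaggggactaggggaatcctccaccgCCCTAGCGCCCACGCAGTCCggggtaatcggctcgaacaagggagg
Kcnn1 intron region with a CTCF match: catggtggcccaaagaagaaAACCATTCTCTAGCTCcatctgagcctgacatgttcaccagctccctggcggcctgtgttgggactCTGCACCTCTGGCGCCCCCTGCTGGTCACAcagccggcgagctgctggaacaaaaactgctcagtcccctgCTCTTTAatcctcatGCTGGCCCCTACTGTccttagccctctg
Shared footprints covered 114 bases of the upstream region and 68 of the intron region.

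By the mean of both libraries, the next highest distal regions were an intron region of Kcnab2 with 3.83 in replicate 1 and 5.84 in replicate 2, and an intron region of Kcnip2 with 3.60 and 5.72, which lay 1070 bp from a start and so just outside the promoter distance. Of the 25 members open in neither library, 14 had a shared distal region, 31 in all. Over all coding genes, open or not, the share with such a region was 45.5%, and it was not taken for closed genes alone. Among the 14, Kcnn4 had 4 shared distal regions, the highest of them 5203 bp from the nearest start with 2.94 and 4.44. Kcne2 had 1, with 3.36 and 4.87.

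CTCF binds insulators and loop anchors, and its pattern was in 46 of the 165 member regions (27.9%), against 22.5% of the 26224 shared distal regions on chromosomes 1 to 19. In 42 of the 46 (91.3%) the match overlapped footprints of both libraries, against 95.3% of all regions with a match. The pattern of REST, a repressor of neuronal genes outside neurons, was in 1 region (0.606%, against 0.317% of all), an intron region of Kcnip1, and that of RFX in 1 (0.606%, against 0.267%), an intron region of Kcnj6. AP-1 was in 11 regions (6.67%, against 5.34%), and in 1 of the 11 (9.09%, against 14.8%) it overlapped footprints of both libraries. The regions with a CTCF match at Kcnip3 (chr2:127507201-127507420, minus strand), an RFX match at Kcnj6 (chr16:94753544-94753740, minus strand) and a REST match at Kcnip1 (chr11:33680247-33680320, minus strand) are shown because the match can be read in them.
Kcnip3 intron region with a CTCF match: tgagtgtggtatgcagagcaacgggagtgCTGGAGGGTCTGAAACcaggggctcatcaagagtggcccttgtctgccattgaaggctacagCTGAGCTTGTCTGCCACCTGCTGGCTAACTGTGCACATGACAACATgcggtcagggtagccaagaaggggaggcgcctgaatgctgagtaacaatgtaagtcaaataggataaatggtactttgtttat
Kcnj6 intron region with an RFX match: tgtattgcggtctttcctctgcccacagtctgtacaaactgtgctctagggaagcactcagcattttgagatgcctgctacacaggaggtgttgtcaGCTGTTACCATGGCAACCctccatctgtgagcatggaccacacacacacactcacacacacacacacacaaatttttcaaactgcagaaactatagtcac
Kcnip1 intron region with a REST match: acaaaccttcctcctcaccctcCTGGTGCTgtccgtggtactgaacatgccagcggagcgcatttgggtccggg
The capitals, again bases inside footprints of both libraries, cover the whole CTCF and RFX matches. Of the REST match, ctgtccgtggtactg read along the gene, 2 bases lay in footprints of replicate 1 and all 15 in footprints of replicate 2. The heights were 3.12 in replicate 1 and 4.88 in replicate 2 for the Kcnip3 region, 1.35 and 1.29 for the Kcnj6 region and 0.515 and 0.732 for the Kcnip1 region.

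Kcn genes that are neighbours did not always share their state. Kcnj10 and Kcnj9 lie 11.9 kb apart on chromosome 1, and Kcnj10 was open in both libraries and Kcnj9 in neither. On chromosome 6, Kcna1 and Kcna6 were open in both libraries, and Kcna5, 105 kb from Kcna1, in neither. On chromosome 3, Kcna3 and Kcna2 were open in both, and Kcna10 in neither. On chromosome 11, Kcnj16 and Kcnj2, 38.2 kb apart, were both open, with heights of 0.522 and 0.623 for Kcnj16 and 3.12 and 3.56 for Kcnj2. Kcne1 and Kcne2, 47.9 kb apart on chromosome 16, were both closed and had 3 shared distal regions between them.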

How the data were processed

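DNase-seq of hippocampus was analysed from the lists the authors deposited for each of the 2 libraries separately. Per the labels the assembly is mm10; no source used here names the aligner, the region caller or its thresholds. The deposited region value is a signal height per region, whose normalisation is not stated. The deposited false discovery rates per base are p-values adjusted by the authors and are listed up to 0.05. The deposited footprints all list the same p-value, 0.01, taken as the authors' limit. Depth is unknown, which leaves values without a counting error. Each region of the shorter lists was found to reach a rate of 0.001 or lower at some base.

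Regions were joined to starts of GENCODE M21 (python 3.11.15, pandas 2.3.3, pysam 0.24.0). Promoter regions lay within 1000 bp of any start, loci reached 10 kb past the gene body, and an overlap of 1 bp made regions of the libraries shared. Promoter windows and sequences come from RefSeq's GRCm38.p6; the 19174 windows matched the genome. Members and lists were chosen with earlier results of these data known. Members are not replicates, and no set test was run. Named genes follow a rule by subfamily, by state, and by counts of distal regions and footprints; 4 members are not reported individually here and stand only in the totals. Alternatives were the longer list, the highest 50% of regions, equal numbers of regions, overlapping regions merged, each replicate alone, and other distances and flanks. Others were a reciprocal overlap of 50%, regions in other coding genes left out and footprints wholly inside regions. Motifs were also searched in 200 bases centred on the highest promoter region.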

Additional observations from a re-analysis of the deposited data

How the results depend on the processing

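Of 127 alternatives computed, 109 stayed within limits around the values of the report's setting, and 18 moved. The limit was 1.5 times a count, or the SD of the libraries for the median height and the number of footprints. The footprint number there was 432.5, the mean of 321 in replicate 1 and 544 in replicate 2 over all members. Its SD of 158 holds the gap between the 2 libraries, so it is a wide limit that few shifts could pass. For motifs it was the exact binomial 95% interval of the share, taken over windows that can overlap. Merging overlapping regions cannot change whether a start has a region nearby, so the promoter counts under that alternative were fixed in advance. With the longer list, 15 members were open in neither library, 10 two-pore genes were open in both and 323 distinct distal regions were shared. With the highest 50% of regions, 32 members were open in both libraries, 20 in 1 and 40 in neither, 86 distal regions were shared, and the median height (mean of both libraries) was 1.95, against 1.42 ± 0.293 (SD, n = 2) in the report's setting; by class 13 voltage-gated, 5 inward rectifier, 4 auxiliary and 2 silent genes were open in both. With 1 replicate left out, distal regions numbered 189 without replicate 2 and 286 without replicate 1, and open two-pore genes 6 and 10. Flanks of 50 kb gave 289 shared distal regions. In 200 bases centred on the highest promoter region, CAGCTG was in 12.7% of members open in both (10.9% of coding genes open in both), CAGATG in 7.27% (6.71%) and the TATA box in 0% (2.53%). The cause of these shifts was not tested. No paired analysis was possible because there is 1 group. Unknown depth limits all counts of regions and footprints.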

Other observations

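Of 24 genes of channel partners, the proteins that traffic, anchor or modulate potassium channels, and of the related HCN channels, 19 had a promoter region in both libraries, 3 in 1 library and 2 in neither. The highest were Calm3 with 8.40 in replicate 1 and 10.8 in replicate 2, Vapb with 7.85 and 9.70, and Calm2 with 6.66 and 6.75. Calm2 and Calm3 encode calmodulin, the calcium sensor of SK and M-current channels, and Vapb encodes a membrane contact protein that binds Kcnb channels. Their heights exceeded that of every Kcn promoter other than Kcnab2 in both libraries. The 2 open in neither were Abcc9, the vascular regulatory subunit of ATP-sensitive channels, and Hcn2, which had a region of 0.704 in the longer list of replicate 1. Abcc8, the neuronal and beta cell counterpart of Abcc9, was open in replicate 2 alone at 0.705, while its pore partner Kcnj11 was open in both libraries.

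Among the pore genes of other voltage-gated channels, 8 of 9 Cacna1 calcium channel genes were open in both libraries and 1 in a single library, with median heights of 1.87 in replicate 1 and 2.57 in replicate 2. Of 10 Scn sodium channel genes, 4 were open in both, 1 in a single library and 5 in neither, with medians of 1.05 and 1.61 for the open ones.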
